A study of Mus musculus with 31 samples.

Results

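mmu-miR-335-5p, mmu-miR-455-3p and mmu-miR-204-5p are 3 mouse miRNAs whose genes lie inside the protein-coding genes Mest, Col27a1 and Trpm3. The prefix mmu, for mouse, is left out from here on. They were chosen by name among the 650 miRNAs on the array because smoke-exposed lungs had shown lower levels of them at the late durations, read here as 8 and 12 weeks. Their values at 8 and 12 weeks are therefore given as a description with no test, while 4 and 6 weeks were tested. All 3 passed the detection filter (well above background on 75% or more of the arrays of at least 1 group), as did 272 of the 650 miRNAs.

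The study compared whole lungs of female BALB/c mice, an inbred strain, breathing cigarette smoke with lungs of mice breathing room air, the controls. Total RNA was hybridised to 1-colour Agilent miRNA arrays after Cy3 labelling of its 3′ end. The 8 groups are control and smoke at 4, 6, 8 and 12 weeks, with 4 arrays each and 3 in the smoke group of 12 weeks (31 arrays). No genotype, allele or other agent is given for any group, and neither the age of the mice nor the smoke dose is given in the sources used here. No label says that replicates are separate animals, so the p-values cover only how far these arrays scatter, and that scatter may be technical. In a whole-lung extract, fewer cells of a type and less RNA per cell cannot be told apart. Every group had 1 array on each of the 4 slides, except that slide 4 lacks smoke of 12 weeks. On each slide smoke and control occupied different lines and each duration its own column, so position on the slide cannot be told apart from smoke or duration.

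A miRNA is cut from a hairpin precursor as a short strand, and it represses messenger RNAs that pair with its seed, bases 2 to 8. A miRNA inside a host gene is often, though not always, made from the host's own transcript. Mest is an imprinted gene expressed from the paternal allele, most strongly in embryonic mesenchyme. Col27a1 encodes a fibrillar collagen chain of developing cartilage, and miR-455 is best known from chondrocytes. Trpm3 encodes a cation channel, and miR-204, abundant in retinal pigment epithelium, has been studied in the lung in pulmonary artery smooth muscle.

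The mature sequences are printed 5′ to 3′ with the seed in capitals, because the seed decides which other miRNAs could act on the same messages and how the 2 arms of a precursor differ. They are RefSeq entries of build GRCm38.p6, in which all 3 members were matched.
miR-335-5p: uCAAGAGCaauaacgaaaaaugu
miR-455-3p: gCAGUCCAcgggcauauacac
miR-204-5p: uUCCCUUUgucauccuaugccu
miR-335-3p: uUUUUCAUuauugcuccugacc
miR-211-5p: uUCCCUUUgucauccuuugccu
The seeds of miR-335-5p and miR-455-3p occur in no other of the 1679 mature miRNAs of that table. The seed of miR-204-5p is shared with miR-211-5p and miR-7670-3p. miR-211-5p, from the related channel gene Trpm1, differs from miR-204-5p by A17U alone among 22 bases (miR-204-5p's base first, position counted from its 5′ end). The 3 members share no seed with each other.

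In GRCm38.p6, miR-335-5p lies at chr6:30741314-30741336 on the plus strand, inside Mest (chr6:30733506-30748466, plus strand). miR-455-3p lies at chr4:63256904-63256924 inside Col27a1 (chr4:63214009-63334991), and miR-204-5p at chr19:22750610-22750631 inside Trpm3 (chr19:22137797-22995410), each on the plus strand like its host. Hosts and miRNAs thus run in the same direction in all 3 cases. The positions fall 52.2%, 35.5% and 71.5% of the way along the hosts. The reference table holds gene spans and no exons, so that these positions are intronic is background knowledge. The hairpin of Mir335, with miR-335-5p in capitals, is shown because both of its arms were measured.
Mir335: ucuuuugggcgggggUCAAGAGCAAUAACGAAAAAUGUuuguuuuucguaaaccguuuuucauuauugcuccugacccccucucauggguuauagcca

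Levels below are log2 of the spot signal relative to the 75th percentile of that array (over 385 probes, those detected on all 31), taken from the brightest probe of each miRNA. Signals under a floor of -6.74 were set to it. Levels of different miRNAs come from different probes and are not compared. miR-335-5p and miR-455-3p were well above background on 31 of 31 arrays and miR-204-5p on 21 of 31, with 4 arrays at the floor. No spot of these miRNAs was saturated.

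miR-335-5p, the Mest miRNA, was lower on every smoke array of 8 weeks, while its groups overlapped at 12 weeks. At 8 weeks its level was -2.31, -2.23, -2.30 and -2.49 on the control arrays (replicates 1 to 4) and -2.88, -3.02, -3.09 and -2.63 on the smoke arrays. Each of the 4 smoke arrays lay below all 4 controls. The difference was -0.57 ± 0.11 log2 (SE, 4 and 4 arrays), or 1.49-fold lower, against a median of -0.050 over all tested miRNAs. On each of the 4 slides smoke was below control, by -0.79 to -0.15 log2. Smoke replicate 3 was also the array of its group with the most striated muscle miRNA signal, and without it the difference was -0.51. Smoke replicates 2 and 4 carried some miR-122-5p, the defining hepatocyte miRNA (-5.61 and -5.93 log2), which was at the floor on the other arrays of 8 weeks. Its part in the 8-week differences was not tested.

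At 12 weeks the controls of miR-335-5p were as low as smoke at 8 weeks. Control levels were -2.97, -2.77, -2.89 and -2.81, and smoke levels were -2.61, -2.77 and -2.99. Smoke replicate 1 lay above all controls, replicate 3 below them and replicate 2 among them. The difference was 0.068 ± 0.12 log2 (SE, 3 and 4 arrays) and ranged from -0.025 to 0.17 when single arrays were left out. Across the 8 group means the level ran from -2.91 (smoke, 8 weeks) through -2.86 (control, 12 weeks) and -2.79 (smoke, 12 weeks) to -2.38 (smoke, 4 weeks) and -2.33 (control, 8 weeks). Of the 7 steps between neighbours in that order, only the step from control to smoke at 4 weeks, 0.13 log2, exceeded the SD within the pair, 0.11.

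miR-455-3p, the Col27a1 miRNA, was lower in smoke at 12 weeks, where the members' largest difference lay. Control levels at 12 weeks were -2.66, -2.55, -2.59 and -2.45, and smoke levels were -3.71, -3.66 and -3.10. All 3 smoke arrays lay below all 4 controls. The difference was -0.93 ± 0.21 log2 (SE, 3 and 4 arrays), 1.90-fold lower, against a median of -0.076 over all tested miRNAs. On the 3 slides with both groups it was -1.16, -1.08 and -0.65. Smoke replicate 3, the smallest of these, carried miR-122-5p at 1.57 log2, which is 6.27 above the next array. Its part in the result was not tested. Without that array the difference was -1.12.

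At 8 weeks miR-455-3p hardly differed at this scaling. Control levels were -2.92, -3.15, -3.03 and -2.90, and smoke levels were -2.80, -3.17, -3.24 and -3.19. Smoke replicates 2 to 4 lay below all controls and replicate 1 above them. The difference was -0.10 ± 0.20 log2 (SE, 4 and 4 arrays). Over the 8 groups the lowest mean was -3.49 (smoke, 12 weeks) and the highest -2.56 (control, 12 weeks). The 4 smoke means were all below the 4 control means, though no step between neighbours in the order exceeded the SD within its pair.

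miR-204-5p, the Trpm3 miRNA, was close to the detection limit, with processed signals of 12.5 to 48.6 units on the scanner's scale. At 8 weeks control levels were -5.89, -6.16, -6.21 and -6.16, all well above background, and smoke levels were -6.62, -6.74, -6.48 and -6.45, with 2 of 4 well above background. All 4 smoke arrays lay below all controls. The difference was -0.47 ± 0.15 log2 (SE, 4 and 4 arrays), and within slides it was -0.74 to -0.27. With each smoke array raised to its lowest signal well above background where it lay under it, smoke was 1.28-fold lower. A normexp background correction turned it to 0.13, where the median of all tested miRNAs was 0.11.

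At 12 weeks no smoke array was well above background for miR-204-5p, and 2 of 4 control arrays were. Control levels were -6.63, -6.24, -6.32 and -6.18, and smoke levels were -6.74, -6.74 and -6.34, the first 2 of these at the floor. The measured means were -6.34 in control and -6.61 in smoke. By these means smoke was 1.20-fold lower, a difference of -0.27 ± 0.16 log2 (SE, 3 and 4 arrays). This is no lower bound, since control arrays that were not well above background entered at their measured values. With no scaling the difference was -0.12 and with the mean of all probes -0.13. Smoke replicates 1 and 2 lay below all controls and replicate 3, which carries miR-122-5p, lay among them. Without it the difference moved from -0.27 to -0.40. The group means spanned 0.50 log2, from -6.61 (smoke, 12 weeks) to -6.10 (control, 8 weeks), and no neighbours in that order differed by more than the SD within their pair.

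**Figure D1:**
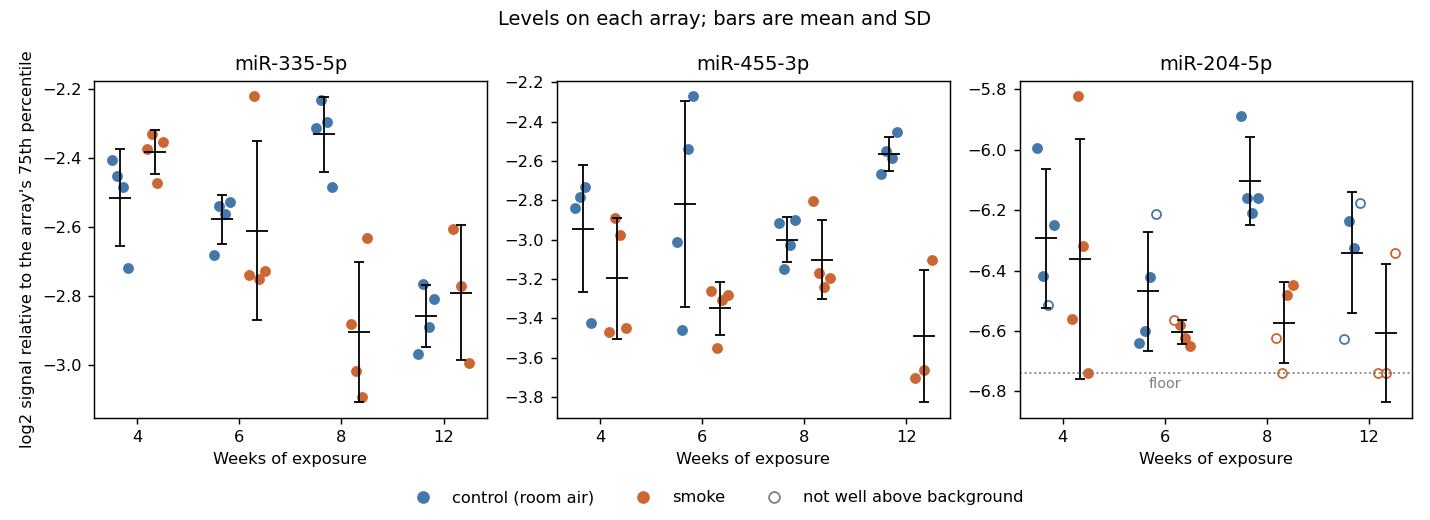
Level of each miRNA on each array (log2 signal relative to the array's 75th percentile) by weeks of exposure, control in blue and smoke in orange, with mean and SD as bars and open circles for arrays not well above background. Smoke and control separate at 8 weeks for miR-335-5p and miR-204-5p and at 12 weeks for miR-455-3p, and several miR-204-5p values sit at the floor of -6.74.

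In the fit over all 272 tested miRNAs, 11% passed a limma adjusted p of 0.05 at 8 weeks, 7.35% on the lower side and 3.68% on the higher. At 12 weeks 9.56% passed, 4.41% on the lower side and 5.15% on the higher. The members were chosen on differences at these durations, so their own place in that fit is not given. The split of all called miRNAs moved with the scaling: 10 higher and 20 lower at 8 weeks became 20 and 23 with the percentile of all probes and 1 and 202 with no scaling, and 14 and 12 at 12 weeks became 19 and 9, and 5 and 0.

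**Figure D2:**
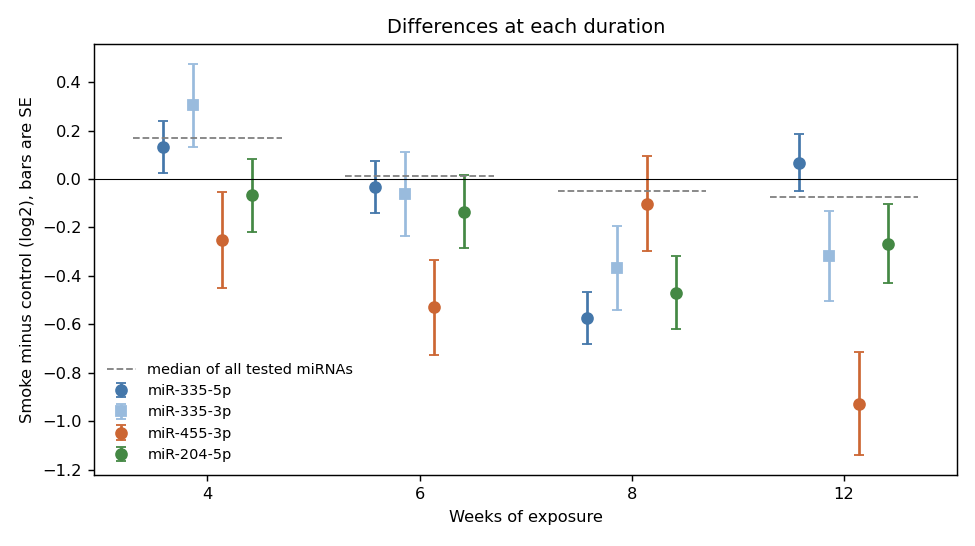
Smoke minus control in log2 at each duration for the 3 members and miR-335-3p, with the SE from limma as bars and the median of all tested miRNAs as a dashed line. miR-335-5p is at -0.57 at 8 weeks and 0.068 at 12 weeks, and miR-455-3p is at -0.10 and -0.93.

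Before the late durations no member passed the test at this scaling. In the authors' table of log2 values, refitted, miR-204-5p passed at 4 weeks (-0.28, limma adjusted p 0.0162) and miR-455-3p at 6 weeks (-0.66, 0.012). Other settings in which miR-455-3p passed early are given below. At 4 weeks 0 of 3 members passed, where 38.2% of all tested miRNAs did (104, of which 73 or 26.8% of those tested were higher and 31 or 11.4% lower), and 0 of 3 had an unadjusted p under 0.05. At 6 weeks 0 of 3 passed, where 8.09% did (22, with 7.72% higher and 0.368% lower), and 1 of 3, miR-455-3p, had an unadjusted p under 0.05. With the percentile of all probes the split of all called miRNAs was 50 higher and 10 lower at 4 weeks and 12 and 4 at 6 weeks, with quantile scaling 19 and 12 at 6 weeks, and with no scaling 4 and 0 at 4 weeks. An average over durations that included 4 and 6 weeks was already known to be lower for miR-455-3p, so its tests at these durations are not independent of its choice.

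miR-335-5p levels at 4 weeks were -2.41, -2.45, -2.48 and -2.72 in control and -2.37, -2.33, -2.47 and -2.35 in smoke, a difference of 0.13 ± 0.11 log2 (SE, 4 and 4 arrays, limma adjusted p 0.323). Smoke replicates 1, 2 and 4 were above all controls and replicate 3 lay within their range. At 6 weeks its levels were -2.68, -2.54, -2.56 and -2.53 in control and -2.74, -2.22, -2.75 and -2.73 in smoke. The difference was -0.033 ± 0.11 (0.925), with 3 smoke arrays below all controls and replicate 2 well above them. The 95% intervals were -0.092 to 0.36 at 4 weeks and -0.26 to 0.19 at 6 weeks.

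miR-455-3p levels at 4 weeks were -2.84, -2.78, -2.73 and -3.42 in control and -3.47, -2.89, -2.97 and -3.45 in smoke. The groups overlapped through control replicate 4, and the difference was -0.25 ± 0.20 log2 (SE, 4 and 4 arrays, limma adjusted p 0.303). Smoke replicates 2 and 3 of 4 weeks carried some miR-122-5p (-5.50 and -4.70), and without both the difference was -0.52 (0.24). At 6 weeks its levels were -3.01, -3.46, -2.54 and -2.27 in control and -3.26, -3.55, -3.31 and -3.28 in smoke. The difference was -0.53 ± 0.20 log2 (unadjusted p 0.013, adjusted p 0.098), and the overlap came from control replicate 2. Leaving out that array gave -0.74 (0.0088), so at this scaling 1 control array decides this call. With all arrays kept, miR-455-3p passed at 6 weeks with all-probe scaling (limma adjusted p 0.00169), quantile scaling (0.0238) and the scanner's total (0.0264). It also passed in the authors' table, refitted (0.012), and with a brightness covariate described below (1.12e-06). It did not pass with others, among them no scaling (0.101) and normexp (0.991). Within slides smoke was below control on 4 of 4 slides at both durations, by -0.63 to -0.026 at 4 weeks and -1.01 to -0.091 at 6 weeks.

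miR-204-5p showed wide spread at 4 weeks and passed the test at neither early duration at this scaling. At 4 weeks its levels were -5.99, -6.42, -6.52 and -6.25 in control and -6.56, -5.82, -6.32 and -6.74 in smoke. The difference was -0.067 ± 0.15 log2 (SE, 4 and 4 arrays, limma adjusted p 0.748), negative on 2 of 4 slides. In the authors' table, refitted, it was -0.28 (0.0162). Without smoke replicates 2 and 3 it was -0.36 (0.199). At 6 weeks levels were -6.64, -6.60, -6.42 and -6.21 in control and -6.56, -6.58, -6.62 and -6.65 in smoke, a difference of -0.13 ± 0.15 (0.662).

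The change of the smoke difference from 4 to 6 weeks was also tested, and 0 of the 272 miRNAs passed in limma (57 had an unadjusted p under 0.05). It was -0.16 ± 0.15 log2 for miR-335-5p (adjusted p 0.418), -0.28 ± 0.28 for miR-455-3p (0.456) and -0.067 ± 0.21 for miR-204-5p (0.828). Between the controls of 4 and 6 weeks, 0 of 3 members passed, where 2.57% of all tested miRNAs did (7, all lower at 6 weeks). The control differences, 6 minus 4 weeks, were -0.063 for miR-335-5p (0.713), 0.12 for miR-455-3p (0.693) and -0.18 for miR-204-5p (0.447).

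The brightness of the arrays differed, and the scaled level of miR-455-3p fell as it rose. The 75th percentile of an array ranged from 1018 to 3725 scanner units. At 8 weeks all controls (2337 to 3472) were brighter than all smoke arrays (1229 to 1681). Within groups, the slope of miR-455-3p was -0.62 ± 0.043 log2 (SE) for each doubling of the 75th percentile. The level is itself a ratio to that percentile, so a signal that does not rise with it gives a negative slope by construction. On the smoke arrays of 8 weeks the unscaled signal of miR-455-3p was 173 to 178 scanner units. Among the 6-week controls, for example, it was -2.27, -2.54, -3.01 and -3.46 on arrays with percentiles of 1018, 1446, 2398 and 3725. With the percentile as a covariate the variance of miR-455-3p within groups was 9.61% of that without, whereas the median over tested miRNAs was 63.9%, and 9 of 272 miRNAs lay under 25%. The same share was 99.7% for miR-335-5p, whose slope was 0.018 ± 0.074, and 70.2% for miR-204-5p.

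With that covariate, miR-455-3p was lower in smoke at 4 weeks (-0.30 ± 0.066 log2, limma adjusted p 0.00128) and at 6 weeks (-0.54 ± 0.065, 1.12e-06), so the call at these durations depends on how brightness is treated. Over all the alternatives the adjusted p ranged from 0.00128 to 0.709 at 4 weeks and from 1.12e-06 to 0.991 at 6 weeks, and the difference was negative in all 19 of them at both. Its values at 8 and 12 weeks became -0.61 ± 0.075 and -0.73 ± 0.072. The 8-week value thus moved from -0.10, at the one duration where brightness separated smoke from control. There it rests on extending the slope between groups whose brightness did not overlap. miR-335-5p kept its values with the covariate, 0.13, -0.033, -0.56 and 0.062 at 4, 6, 8 and 12 weeks. miR-204-5p was at -0.087, -0.14, -0.69 and -0.18.

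**Figure D3:**
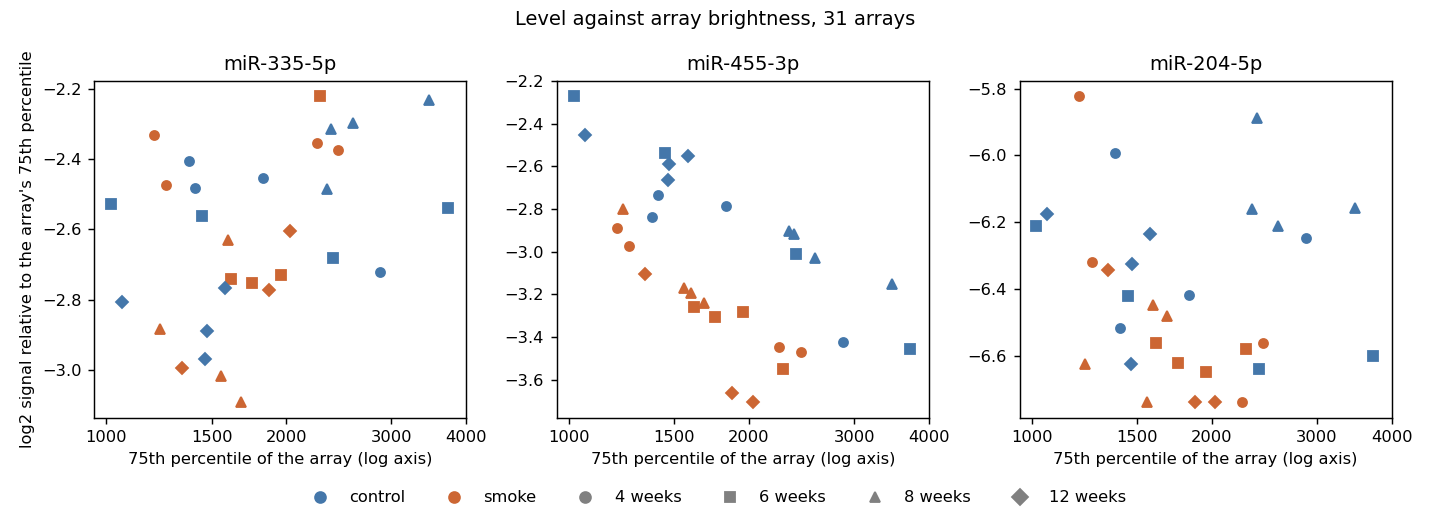
Level of each miRNA (log2 relative to the array's 75th percentile) against that percentile in scanner units (log axis) for 31 arrays, coloured by smoke or control, with a marker shape for each duration. miR-455-3p falls with brightness and the smoke arrays lie lower at a given brightness, while miR-335-5p shows no such slope (0.018 log2 per doubling).

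Both probes of miR-335-5p and both of miR-455-3p, each printed as 10 spots, gave the same directions at every duration. The second probe of miR-335-5p differed by 0.15, -0.041, -0.71 and 0.15 log2 at 4, 6, 8 and 12 weeks, and all 4 smoke arrays of 8 weeks were again below all controls. The second probe of miR-455-3p differed by -0.29, -0.59, -0.26 and -0.999, with all 3 smoke arrays of 12 weeks below all controls. The second probe of miR-204-5p was at the floor on every array after scaling, so it gives no scaled difference. At 8 weeks it was well above background on 3 of 4 control arrays and 0 of 4 smoke arrays. Its unscaled signals there were 15.5 to 25.7 scanner units in control and 5.96 to 9.12 in smoke, where all control arrays were brighter. The levels given for miR-204-5p therefore rest on 1 probe of low signal.

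The 3p arm of the Mest hairpin, miR-335-3p, is no member and was tested at every duration. Since it shares hairpin and arrays with miR-335-5p, its tests at 8 and 12 weeks are not independent of the members' choice. At 8 weeks its levels were -5.71, -5.78, -5.72 and -5.71 in control and -5.99, -6.28, -6.43 and -5.69 in smoke, a difference of -0.37 ± 0.17 log2 (SE, 4 and 4 arrays, unadjusted p 0.043, limma adjusted p 0.193). On 3 smoke arrays levels were below all controls and replicate 4 above them. The 4 smoke arrays stood in the same order for both arms, replicate 3 lowest, then 2, 1 and 4. At 12 weeks, when miR-335-5p did not differ, all 3 smoke arrays of miR-335-3p (-6.30, -6.16 and -6.05) were below all 4 controls (-5.94 to -5.73), a difference of -0.32 ± 0.19 (0.283). Its second probe gave -0.082 there, with 0 of 3 smoke arrays below all controls, and with no scaling the difference was 0.0020. It differed by 0.30 ± 0.17 at 4 weeks (0.15) and -0.061 ± 0.17 at 6 weeks (0.918). With the brightness covariate it passed at 4 weeks (0.27, 0.0468) and at 8 weeks (-0.72, 0.000197). It also passed at 8 weeks in the authors' table of log2 values, refitted (-0.33, 0.00767), with quantile scaling (-0.35, 0.0335), with all-probe scaling (-0.34, 0.0138), unscaled (-1.19, 0.000209) and in the scanner's total per miRNA (-0.89, 0.00225). It did not pass at 8 weeks with a normexp background correction (0.23, 0.978) or with the mean of all probes (-0.18, 0.285).

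The other arms and the seed sharer gave little signal. miR-455-5p, the 5p arm of the Col27a1 precursor, was well above background on 9 of 31 arrays and at the floor on 28. miR-211-5p, which carries the seed of miR-204-5p, was well above background on 2 of 31 arrays and at the floor on all 31. miR-211-5p failed the detection filter and was not tested. miR-455-5p passed the filter through the controls of 8 weeks, where 3 of 4 control arrays and 0 of 4 smoke arrays were well above background. It passed the test at no duration, with differences of 0.0083 ± 0.028 log2 at 4 weeks (SE, limma adjusted p 0.819) and -0.0020 ± 0.028 at 8 weeks (0.996), while all arrays of 6 and 12 weeks were at the floor. At 4 weeks 6 arrays and at 8 weeks 7 arrays were at the floor as well. The floor sets these differences and their SE, so they cannot show whether its level differed.

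The members did not share 1 pattern over the 8 group means. Pearson's r was -0.064 between miR-335-5p and miR-455-3p, 0.65 between miR-335-5p and miR-204-5p and 0.53 between miR-455-3p and miR-204-5p, as a description over 8 points that share arrays and brightness. The miRNAs most like miR-335-5p, among 204 others detected on every array, were miR-450a-5p (r 0.85), miR-127-3p (0.83) and miR-322-3p (0.78). Those most like miR-455-3p were miR-709 (0.90), let-7a-1-3p (0.90) and miR-574-3p (0.86). Those most like miR-204-5p, among 205, were miR-542-5p (0.93), miR-181d-5p (0.90) and miR-181c-5p (0.90).

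Other miRNAs that lie in introns of protein-coding genes were described for comparison, from a list of 44 of which 40 were tested. At 8 weeks 1 was lower, miR-152-3p of Copz2 (-0.33 log2), 1 was higher, miR-139-3p of Pde2a (0.57), and 38 did not pass. At 12 weeks 1 was lower, miR-126-3p of the endothelial gene Egfl7 (-0.25), 1 was higher, miR-449a-5p of Cdc20b (1.52), and 38 did not pass. The list's medians of -0.095 and -0.078 stood beside -0.050 and -0.076 for all tested miRNAs. Of all tested miRNAs, 7.35% passed as lower and 3.68% as higher at 8 weeks, and 4.41% and 5.15% at 12 weeks. At 6 weeks 3 were higher, miR-218-5p (0.32), miR-326-3p (0.42) and miR-449a-5p (0.86), and 0 of 40 passed as lower in limma (1 under an unadjusted p of 0.05). At 4 weeks 12 were higher, led by both arms of the Evl miRNA miR-342 (miR-342-3p 0.86, miR-342-5p 0.75), miR-139-3p (0.74) and miR-25-3p of Mcm7 (0.47). The 5 lower at 4 weeks were led by miR-32-5p (-1.58), miR-33-5p of the sterol regulator gene Srebf2 (-1.28), miR-30e-5p (-0.81) and miR-338-3p (-0.34). The list's medians at 4 and 6 weeks, 0.13 and 0.053, stood beside 0.17 and 0.013. Of all tested miRNAs, 26.8% passed as higher and 11.4% as lower at 4 weeks, and 7.72% and 0.368% at 6 weeks.

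Mest is imprinted, and a list of 10 miRNAs from other imprinted loci was set beside its miRNA. The list leaves out the imprinted Dlk1-Dio3 cluster and was chosen with earlier results of these data known. Of these, 4 were tested, and 5 of the rest, from Igf2, H19 and the 3p arm of the Gnas miRNA miR-296, were well above background on no array. The list holds 3 miRNAs of Sfmbt2, a polycomb gene with a large intronic miRNA cluster, and not the rest of that cluster. These 3 were tested and were lower at both late durations. miR-669f-3p was at -0.73 and -0.63 log2 at 8 and 12 weeks, miR-467d-3p at -0.66 and -0.70, and miR-466b-3p at -0.48 and -0.73. At 4 weeks miR-669f-3p was lower as well (-0.41), and at 6 weeks 0 of 4 passed in limma, with 0.0758 as their lowest adjusted p and 3 of them under an unadjusted p of 0.05. miR-296-5p of Gnas passed at no duration (0.21 at 8 weeks and 0.029 at 12 weeks). The Sfmbt2 cluster holds near-identical copies that probes may not tell apart, so these 3 values are uncertain and not independent. The list's medians were -0.58 at 8 weeks and -0.66 at 12 weeks, beside -0.050 and -0.076 for all tested miRNAs. Since 3 of the 4 tested miRNAs are from Sfmbt2, these medians do not describe imprinted loci as a whole. Whether these miRNAs differ from miR-335-5p in their response was not tested.

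Markers of the cell types a lung extract holds were read on the same arrays. All 5 mesenchymal and smooth muscle miRNAs, both endothelial, all 5 haematopoietic and 6 of 7 epithelial miRNAs were detected on every array, while the neural miR-124-3p and miR-9-3p were detected on none. Mesenchymal and smooth muscle miRNAs summed to 2.63 to 2.68 log2 in control and 2.47 to 2.71 in smoke at 8 weeks, and to 2.61 to 2.75 and 2.59 to 2.78 at 12 weeks. At these durations 0 of 5 passed in limma, with 0 and 1 of them under an unadjusted p of 0.05. Endothelial miRNAs summed to 4.98 to 5.02 in control and 4.71 to 4.99 in smoke at 8 weeks. At 12 weeks they were lower on every smoke array, 4.83 to 4.94 against 5.07 to 5.14, and miR-126-3p passed while miR-126-5p did not (0.0010, limma adjusted p 1). Epithelial miRNAs summed to 2.84 to 2.89 in control and 2.69 to 2.89 in smoke at 8 weeks, and to 2.83 to 2.92 and 2.93 to 2.96 at 12 weeks, where miR-429-3p passed as higher (0.32, 0.00461). Haematopoietic miRNAs summed to 6.09 to 6.27 and 6.06 to 6.55 at 8 weeks, and to 6.13 to 6.25 and 6.27 to 6.37 at 12 weeks. Taken singly at 12 weeks, miR-142-3p (-0.55 log2), miR-142-5p (-0.67), miR-150-5p (-0.79) and miR-223-3p (-0.25) were lower in smoke. Only miR-451 was higher (0.19), so the sum ran against the other miRNAs of its list. There 0 of 5 passed in limma, with 2 under an unadjusted p of 0.05, both lower. Striated muscle miRNAs, from tissue outside the lung's own cell types or from pulmonary vein muscle, summed to 0.53 to 0.82 in control and 0.44 to 2.84 in smoke at 8 weeks. The part of these cell types in the members' differences was not tested.

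**Figure D4:**
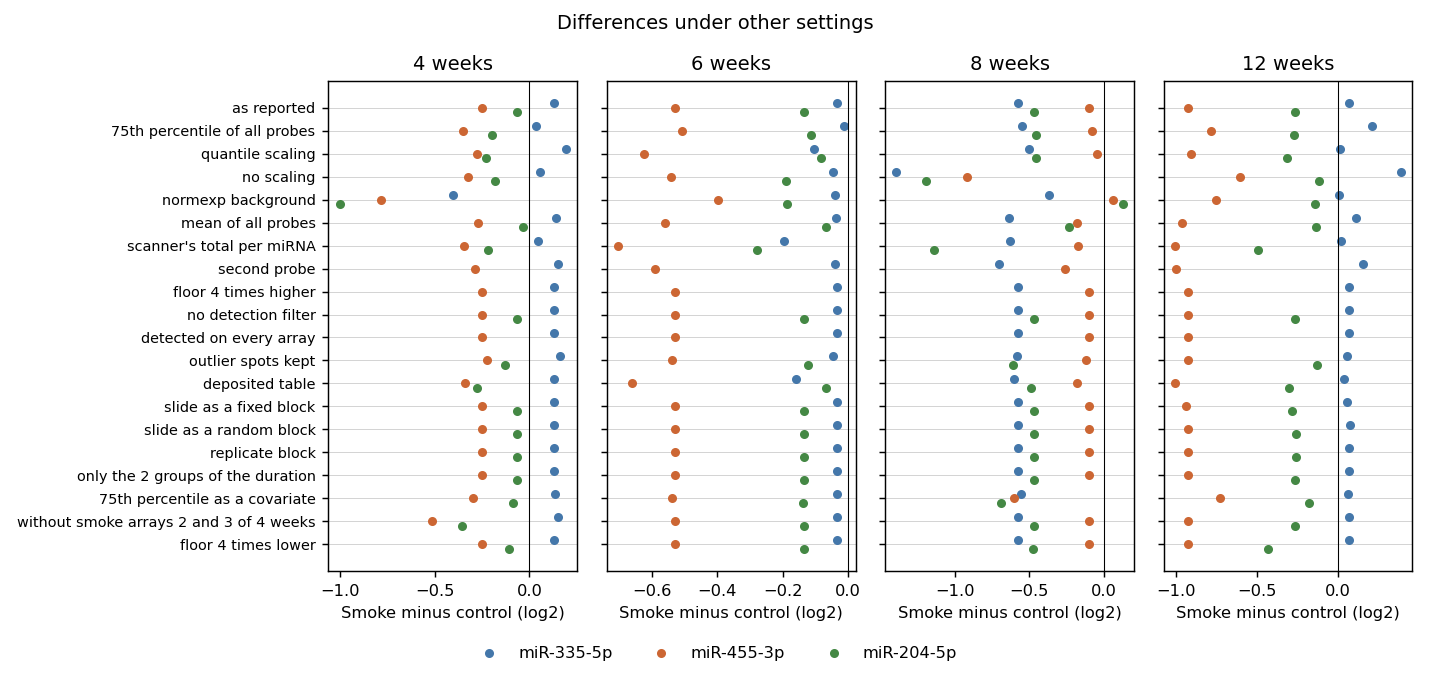
Smoke minus control in log2 for the 3 members at each duration under each processing setting, with the main setting at the top of the axis. miR-335-5p stays below 0 at 8 weeks (-1.39 to -0.37) and miR-455-3p below 0 at 12 weeks (-1.01 to -0.61) in every setting drawn.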

How the data were processed

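Per the file headers, each spot value is an intensity from which Feature Extraction 10.7.3.1 had removed background and spatial trend, and that software marked each spot as outlier, saturated or well above background. The deposited table holds log2 values of 650 entries as the authors normalized them (normalization: not given in the sources used here). Medians per array are 2.71 to 2.85, and the correlation with the scaled spot values, 0.981 to 0.989, set its scale and direction.

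Of 13715 spots per array, the 13000 that are not controls measure 1857 probes. Outlier spots (297 to 655 per array) were left out, the rest of a probe averaged, and each array scaled to the 75th percentile of 385 probes, those detected on all 31 arrays (50% or more of the probe's spots well above background). The floor is the median, across arrays, of each array's lowest scaled signal from a detected probe, and lower signals were raised to it. The brightest probe stood for a miRNA. limma 3.58.1 in R 4.3.3 fitted 1 mean per group over 31 arrays (23 residual degrees of freedom), and p-values were adjusted over 272 miRNAs by Benjamini and Hochberg. The script was tested on simulated data. The number of arrays limits the precision.

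The members, lists, marker sets and tests were chosen with earlier results of these data known. Named beside the members are the other arms of their precursors, miR-211-5p, for each member the 3 miRNAs detected on every array with the most similar group means, and list members that passed, up to 4 per direction and duration. Groups and replicate numbers came from sample titles. Alternatives were other scalings, background, floors, filters, probe summaries, the authors' table, slide or replicate as a block, the array's 75th percentile as a covariate, and arrays left out. The normexp correction used median spot signals, since mean signals were not used here. Same-numbered arrays of smoke and control shared a slide at 4, 6 and 8 weeks but not at 12 weeks. They correlated over 0.1 in 9 of 15 pairs (-0.47 to 0.54) and were not treated as pairs in the main fit.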

Additional observations from a re-analysis of the deposited data

Results flagged for a closer look

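Among 28 groups of 4 arrays checked for miR-335-5p, miR-455-3p, miR-204-5p and miR-335-3p, 5 had 1 array far from the other 3. For independent normal values the cutoff flags about 1 in 20. The 28 sets share arrays and brightness, so the 5 flagged cannot be set against that rate. miR-335-5p on smoke replicate 2 of 6 weeks was at -2.22 log2, against -2.75 to -2.73 on the other arrays. The same array held the lowest miR-455-3p of its group, -3.55 against -3.31 to -3.26, and it was the brightest of the group with a 75th percentile of 2278. miR-455-3p was at -3.42 on control replicate 4 of 4 weeks, the brightest array of that group (2875), against -2.84 to -2.73 on the others. On smoke replicate 1 of 8 weeks, the dimmest of its group (1229), miR-455-3p was at -2.80 against -3.24 to -3.17, and this is the array that lay above the controls. miR-204-5p was at -5.89 on control replicate 1 of 8 weeks, against -6.21 to -6.16, and without it the 8-week difference was -0.40. The part of brightness in these values was not tested array by array.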

How the results depend on the processing

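Values are log2 smoke minus control unless named otherwise. Over 462 results under other settings, 392 were counted as unchanged, and for arrays left out 1 at a time 789 of 806 were. Some small differences counted as unchanged did change sign. These include miR-455-3p at 8 weeks with normexp (0.060) and miR-335-5p at 12 weeks without smoke replicate 1 (-0.025). miR-335-5p at 8 weeks (-1.39 to -0.37) and miR-455-3p at 12 weeks (-1.01 to -0.61) stayed negative throughout. Depth is not given by arrays, and signal over background limits miR-204-5p, which has no value with the floor 4 times higher or from its second probe (at the floor on all arrays) and is left out of the miRNAs detected on every array. A floor 4 times lower was chosen after seeing the data. Where no cause is given below, the cause was not tested.

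With the percentile of all probes, miR-455-3p passed at 4 weeks (-0.35, limma adjusted p 0.0177) and 6 weeks (-0.51, 0.00169) and miR-335-3p at 8 weeks (-0.34). The control difference of miR-335-5p turned to 0.034 and the 6-less-4-week contrast of miR-204-5p to 0.082, and 60 miRNAs were called at 4 weeks. With quantile scaling, miR-455-3p passed at 6 weeks (-0.62) and miR-335-3p at 8 weeks (-0.35), the contrast of miR-204-5p was 0.15, and 44 miRNAs were called at 12 weeks. With no scaling the median of all miRNAs moved to -0.86 at 8 weeks and 0.20 at 12 weeks. There miR-335-5p was at -1.39 and 0.39, miR-455-3p at -0.92 and -0.61, miR-204-5p at -1.19 at 8 weeks, and miR-335-3p at -1.19 and 0.0020. The control difference of miR-335-5p was 0.029, and 4, 2, 203 and 5 miRNAs were called at 4, 6, 8 and 12 weeks.

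With normexp, the medians of all miRNAs were -0.75 at 4 weeks and 0.11 at 8 weeks. miR-335-5p was at -0.41 and -0.37 at 4 and 8 weeks and miR-335-3p at -0.96 and 0.23. At 8 weeks miR-204-5p was at 0.13 and miR-455-3p at 0.060. The 6-less-4-week contrasts were 0.37, 0.38 and 0.82 for miR-335-5p, miR-455-3p and miR-204-5p, the control difference of miR-455-3p was -0.51, and 46, 4, 3 and 4 miRNAs were called at 4, 6, 8 and 12 weeks.

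With the mean of all probes miR-204-5p was at -0.23 at 8 weeks, and the second probe of miR-335-3p gave 0.011 at 6 weeks. With the scanner's total, miR-455-3p passed at 6 weeks (-0.70), miR-335-3p at 8 weeks (-0.89), miR-204-5p was at -1.14 and -0.49 at 8 and 12 weeks, and 60 miRNAs were called at 8 weeks. With the floor 4 times higher 63, 13, 18 and 15 miRNAs were called, and with no detection filter, which adds miRNAs to the test, 55 at 4 weeks. With outlier spots kept the contrast of miR-204-5p was 0.0085. In the authors' table, refitted, miR-204-5p passed at 4 weeks (-0.28, 0.0162), miR-455-3p at 6 weeks (-0.66) and miR-335-3p at 8 weeks (-0.33). The contrast of miR-204-5p was 0.21 there, and 52 and 46 miRNAs were called at 8 and 12 weeks.

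With only the 2 groups of a duration, which leaves 6 residual degrees of freedom, 18 and 94 miRNAs were called at 4 and 12 weeks, and miR-335-3p passed at 12 weeks (-0.32, 0.0272). With the brightness covariate miR-455-3p passed at 4 weeks (-0.30) and 6 weeks (-0.54), as did its control difference (0.18, 0.0389), and miR-335-3p at 4 weeks (0.27) and 8 weeks (-0.72). At 8 weeks miR-455-3p was at -0.61 and miR-204-5p at -0.69, and 44, 121 and 42 miRNAs were called at 6, 8 and 12 weeks. Without smoke arrays 2 and 3 of 4 weeks, 15 and 46 miRNAs were called at 4 and 12 weeks, and the contrast of miR-204-5p was 0.22.

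Single arrays left out gave 36 to 149 called miRNAs at 4 weeks (36 without smoke replicate 3, 39 without smoke replicate 2, 42 without control replicate 4). They gave -0.74 (without control replicate 2, limma adjusted p 0.0088) to -0.35 for miR-455-3p at 6 weeks, and -0.25 to 0.059 for miR-204-5p at 4 weeks, -0.16 to 0.014 for miR-335-5p and -0.20 to 0.12 for miR-335-3p at 6 weeks. The contrast of miR-204-5p ran from -0.19 to 0.11 and the control difference of miR-455-3p from -0.058 to 0.34. With the replicate number as a block, no call changed where these miRNAs were tested, and miR-455-3p was at -0.53 at 6 weeks (limma adjusted p 0.113). The values given without a test were -0.57 for miR-335-5p at 8 weeks and -0.93 for miR-455-3p at 12 weeks. In that fit 89, 22, 28 and 22 miRNAs were called at 4, 6, 8 and 12 weeks. Same-numbered arrays share a slide as well as a number at 4, 6 and 8 weeks, and in 9 of 15 pairs they correlated over 0.1.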
